A study of Mus musculus with 14 samples.

Results

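The 6 duodenal tumors of Lrig1-null mice were compared among themselves, in 2 groups chosen from their array signal of Muc5ac. Tumor replicates 3, 5 and 4 had the highest signals and are called Muc5ac-high tumors; replicates 2, 6 and 1 had the lowest and are called Muc5ac-low tumors. These 6 arrays are part of a set of 14, which also holds 5 arrays of normal duodenum next to a tumor and 3 arrays of wildtype duodenum. The grouping therefore comes from a measured gene and not from a treatment, so differences between both tumor groups are given as a description, without a test.

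All 14 arrays were made from total RNA on Affymetrix Mouse Gene 1.0 ST chips and came from 9 mice of a mixed 129S7/SvEv and C57/BL6 background. Tumor mice carried CreERT2 in both copies of Lrig1 (Lrig1-CreERT2/CreERT2, labelled Lrig1-/-), and so did the mice that gave adjacent tissue, because both tissues came from the same animals. The wildtype mice were the only animals with intact Lrig1. Mice are labelled age matched, without an age, and every sample is labelled proximal duodenum. Mouse numbers in the labels tie adjacent replicates 2, 4 and 3 to the mice of tumors 3, 5 and 4, and adjacent replicates 1 and 5 to those of tumors 2 and 6. The mouse of tumor 1 has no adjacent array here. The labels name no treatment with tamoxifen, no sampling time and no tumor size.

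Muc5ac encodes the gel-forming mucin of surface pit cells, the mucous cells that line the stomach and its glands' openings and that normal duodenum lacks. Mucous cells of the gastric gland base and of the duodenal Brunner glands make a different mucin, encoded by Muc6. Pit cells also make trefoil and gastrokine peptides, and gastrin, encoded by Gast, is the hormone of G cells in the gastric antrum. In intestinal adenomas, gastric mucous lineages can replace the absorptive, goblet and Paneth lineages of the crypt and villus.

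Promoter windows of 5 genes named below are shown first. Gast, Muc1 and Capn13 had higher group means in Muc5ac-high tumors, Reg4 was lower there, and Ciart was a clock gene among the higher ones. The sequences were taken from RefSeq on GRCm38.p6 and run 5′ to 3′ on the gene's strand, from 250 bases before to 50 bases after the annotated start. Capitals mark the letters TATAA in the first 4 windows and CACGTG in the last, each searched on both strands.
Gast (chr11:100334157-100334456, plus strand): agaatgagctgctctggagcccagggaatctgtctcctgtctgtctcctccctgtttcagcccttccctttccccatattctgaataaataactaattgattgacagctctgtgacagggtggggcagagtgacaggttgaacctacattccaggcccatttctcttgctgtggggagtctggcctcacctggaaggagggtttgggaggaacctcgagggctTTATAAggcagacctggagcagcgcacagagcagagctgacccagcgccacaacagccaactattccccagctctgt
Muc1 (chr3:89228806-89229105, plus strand): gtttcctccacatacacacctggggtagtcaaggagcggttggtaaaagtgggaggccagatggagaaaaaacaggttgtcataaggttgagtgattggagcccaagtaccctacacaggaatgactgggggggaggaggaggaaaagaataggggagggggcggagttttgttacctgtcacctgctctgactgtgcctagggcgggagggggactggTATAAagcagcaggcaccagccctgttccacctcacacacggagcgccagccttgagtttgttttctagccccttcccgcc
Capn13 (chr17:73399247-73399546, minus strand): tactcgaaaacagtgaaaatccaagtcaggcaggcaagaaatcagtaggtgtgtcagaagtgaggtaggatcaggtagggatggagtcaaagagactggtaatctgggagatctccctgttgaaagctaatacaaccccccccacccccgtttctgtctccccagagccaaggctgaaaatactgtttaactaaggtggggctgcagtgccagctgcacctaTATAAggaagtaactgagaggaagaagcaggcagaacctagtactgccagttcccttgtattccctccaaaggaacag
Reg4 (chr3:98221906-98222205, plus strand): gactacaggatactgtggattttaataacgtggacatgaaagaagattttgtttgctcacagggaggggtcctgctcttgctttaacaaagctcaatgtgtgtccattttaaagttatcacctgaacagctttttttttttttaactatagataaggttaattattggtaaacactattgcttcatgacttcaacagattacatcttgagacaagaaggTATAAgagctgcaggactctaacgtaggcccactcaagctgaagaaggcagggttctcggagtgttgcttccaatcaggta
Ciart (chr3:95882179-95882478, minus strand): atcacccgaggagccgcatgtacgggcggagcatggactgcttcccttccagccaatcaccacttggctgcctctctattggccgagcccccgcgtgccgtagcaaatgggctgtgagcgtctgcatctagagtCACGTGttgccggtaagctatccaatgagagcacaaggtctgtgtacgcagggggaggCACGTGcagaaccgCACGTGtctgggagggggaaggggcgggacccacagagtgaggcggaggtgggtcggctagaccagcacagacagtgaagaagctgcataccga
The letters TATAA began 26 bases before the start of Gast, where a match on the opposite strand overlaps it, 31 before Muc1, 28 before Capn13 and 31 before Reg4. They occurred in 24.9% of all 32851 windows. Windows were found for 38 of the 56 higher genes defined below, and 11 of their 41 windows (26.8%) held TATAA. For the lower genes, 21 of 27 had a window and 15 of 26 windows (57.7%) held it. The Ciart window held CACGTG 3 times, between 116 and 44 bases before the start, and 7.15% of all windows held it at least once. These matches describe letters only.

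Muc5ac signal fell over a wide range across the tumors. On the log2 scale of the arrays it was 13.93 in tumor 3, 12.89 in tumor 5 and 9.40 in tumor 4, against 8.18 in tumor 2, 7.68 in tumor 6 and 7.27 in tumor 1. Adjacent duodenum lay between 6.38 and 6.93, below every tumor. The group means differed by 4.36, a 20.6-fold difference, and the SD over the 6 tumors (2.84) was the largest of 19938 genes, where the median gene had 0.19. The last high and the first low tumor differed by 1.22, whereas tumors 5 and 4 differed by 3.49. Tumor 4 was thus nearer in Muc5ac to the Muc5ac-low tumors than to tumor 5.

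Of the other markers given with Muc5ac, Psca ranked the tumors in the same order, and Gast did not split the groups. Psca, a surface protein of gastric mucous cells, was 13.82, 13.44 and 12.15 in tumors 3, 5 and 4, and 12.06, 9.48 and 8.46 in tumors 2, 6 and 1. The groups did not overlap, but only 0.09 separated tumors 4 and 2, and all values exceeded the adjacent range of 7.03 to 8.14. Gast was 13.22 in tumor 3, and the other 5 tumors lay between 6.94 and 7.69, close to the adjacent range of 6.89 to 7.37. The Gast difference of 2.17 was 0.20 without tumor 3, so Gast marks that tumor and not the Muc5ac-high group.

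**Figure D1:**
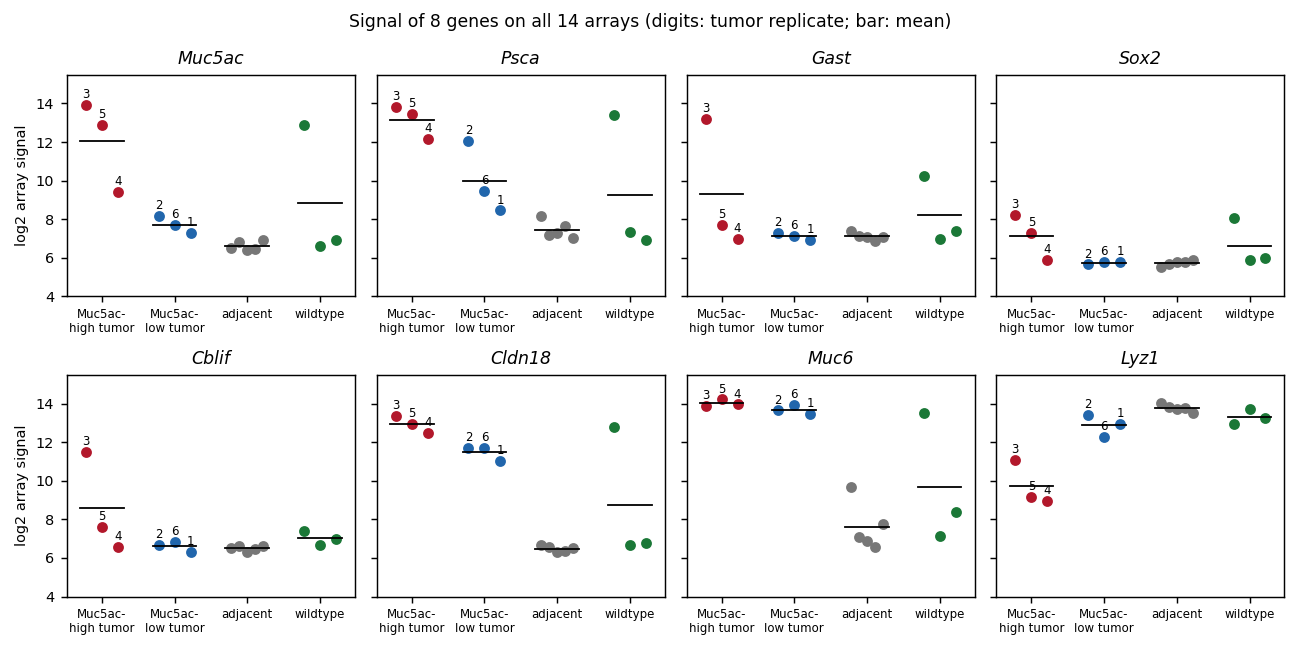
Log2 array signal (vertical axis) of 8 genes in Muc5ac-high tumors, Muc5ac-low tumors, adjacent duodenum and wildtype duodenum. Points are single arrays, digits give the tumor replicate and horizontal bars the group mean. Muc5ac falls from 13.93 to 7.27 over the tumors, Gast and Cblif stand out in tumor 3, Cldn18 and Muc6 are high in every tumor, and Lyz1 is lower in the 3 Muc5ac-high tumors.

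Some facts of the arrays bear on these values. The tissue label was checked on intestinal genes: the tumors had Vil1, the villin of brush borders, at 11.98 to 12.60, and Cdx2, the transcription factor of intestinal identity, at 10.26 to 11.08. Lrig1 was 7.65 to 8.54 in tumors, 6.95 to 7.40 in adjacent tissue and 8.22 to 9.54 in wildtype, so the tumors were not at the adjacent level; which part of the disrupted locus the probes read was not analysed here. Wildtype replicate 1 carried Muc5ac at 12.88 and Psca at 13.40, while the other wildtype arrays lay between 6.62 and 7.36 for both genes. The non-tumor tissue is labelled as epithelium, but pancreatic acinar genes (12 measured) averaged 12.33 and 13.41 in adjacent replicates 1 and 2, 13.02 and 12.56 in wildtype replicates 1 and 3, and 7.13 to 7.31 in the other non-tumor arrays. In tumors they averaged 8.31, 8.63 and 7.20 (tumors 3, 5, 4) against 7.35, 7.46 and 9.29 (tumors 2, 6, 1), and no acinar gene split the groups. In such bulk tissue, fewer cells of a type and less RNA per cell cannot be told apart.

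Over all genes, 1887 of 19938 (9.46%) were higher in each Muc5ac-high tumor than in every Muc5ac-low tumor, and 804 (4.03%) were lower in the same sense. When the group means also had to differ at least 2-fold, 56 genes (0.281%) were higher and 27 (0.135%) lower. Because the tumors were ordered on the same arrays, these shares are background against which list counts are printed, and nothing is read from them. The counts moved with tumors 4, 3 and 6. Without tumor 4 the counts were 215 higher and 79 lower, without tumor 3 there were 48 lower, and without tumor 6 there were 95 lower. Tumor 3 was the highest array for 36 of the 56 higher genes, tumor 5 for 18 and tumor 4 for 2. The order of all 6 tumors was that of Muc5ac for 10 of the 56 and for 100 of all 19938 genes. The 56 were already chosen for non-overlap, which makes that order easier to meet. The first principal component of the tumors, with 34.3% of their variance, placed tumor 3 at 38.7 and tumor 5 at 16.6, and tumor 4 at -11.9 among the Muc5ac-low tumors at -18.4 to -11.1.

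**Figure D2:**
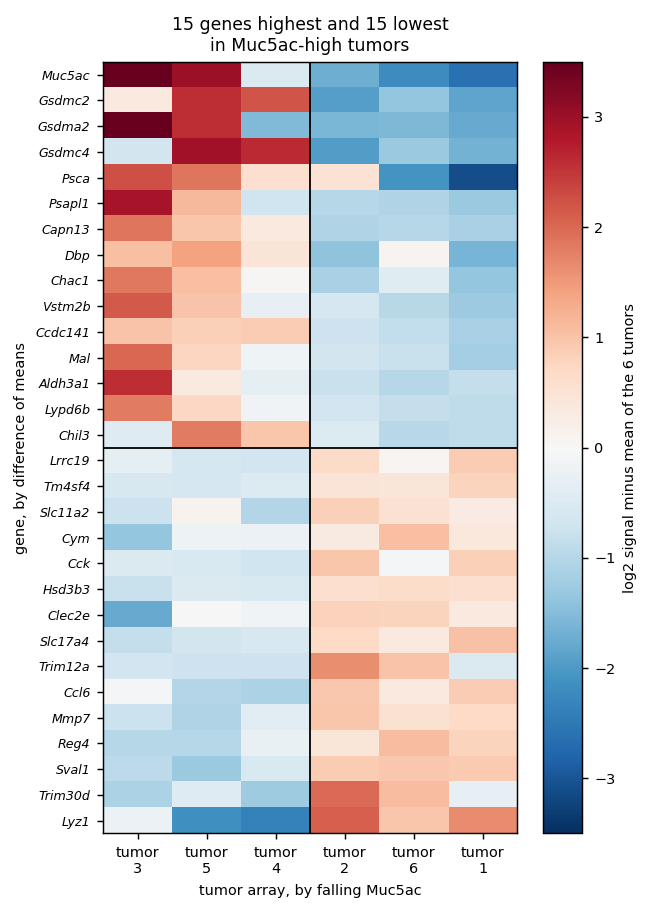
Color gives the log2 signal minus the mean of the 6 tumors for the 15 genes with the largest positive and the 15 with the largest negative difference of means among genes whose groups do not overlap. Columns are tumors by falling Muc5ac, and the vertical line separates Muc5ac-high from Muc5ac-low tumors. Tumor 4 is the lowest of the Muc5ac-high columns for Muc5ac, Gsdma2 and Psapl1, and is above tumor 3 for Gsdmc2, Gsdmc4 and Chil3.

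Most pit cell genes were above adjacent tissue in the tumors as a group, and a subset of them was higher in the Muc5ac-high tumors. Of 18 measured genes on the gastric pit list, 8 were higher in every Muc5ac-high tumor (background 9.46%) and 1 lower (4.03%), with a median difference of 0.39, where the median of all genes was 0.01. Muc5ac, which set the order, is among these 8; without it 7 of 17 were higher and the median was 0.345. Without tumor 3 the median of the 18 was 0.21. Of the 8, 4 differed at least 2-fold (Muc5ac, Psca, Cldn18 and Fer1l4) and 4 by less. Gkn2, a gastrokine, was 14.35, 14.16 and 14.15 in tumors 3, 5 and 4 against 14.04, 14.08 and 14.01 in tumors 2, 6 and 1. Tff1, the trefoil peptide of pit cells, differed by 0.29 and Gkn1 by 0.44. These signals lie close to the highest gene of each array (14.35 to 14.54), where differences can be compressed. Against adjacent tissue, all 6 tumors together were higher for 15 of the 18 (limma adjusted p under 0.05, background 19.1%), among them Gkn2 by 7.49 and Tff1 by 5.82.

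Cldn18, the claudin of gastric epithelium, showed a graded pattern, with 13.36, 12.96 and 12.47 in tumors 3, 5 and 4 against 11.72, 11.70 and 11.05 in tumors 2, 6 and 1. The adjacent arrays lay between 6.32 and 6.68, so the Muc5ac-low tumors also carried it far above their surroundings. Muc1, a membrane-bound mucin, followed with 12.86, 12.36 and 11.35 against 10.93, 11.00 and 10.12. In adjacent tissue Muc1 ran from 5.81 to 12.12, and the top value was adjacent replicate 2, an array with acinar transcripts. Fer1l4, a ferlin family gene on the pit list, was 9.80, 9.77 and 9.98 against 8.73, 8.85 and 8.74. For that gene tumor 4 was as high as tumors 3 and 5.

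Sox2, the transcription factor of foregut and stomach identity, was above the adjacent range in the tumors with the most Muc5ac. It was 8.21 in tumor 3, 7.27 in tumor 5 and 5.90 in tumor 4, against 5.66, 5.79 and 5.76 in tumors 2, 6 and 1 and 5.53 to 5.88 in adjacent tissue. Tumor 4 exceeded the adjacent range by 0.02 only. In the test of all tumors against adjacent tissue Sox2 did not pass (limma adjusted p = 0.195). Foxa3, a forkhead factor of endoderm, was 10.95, 10.52 and 9.76 against 9.33, 9.74 and 9.38. Isx and Cdx1, factors of the intestine, were lower, with Isx at 10.34, 10.16 and 10.72 against 11.49, 10.76 and 11.46, and Cdx1 at 8.45, 8.72 and 8.88 against 9.12, 9.05 and 9.28. Of 25 measured factors on the list of gastric and intestinal transcription factors, 4 were higher without overlap (background 9.46%) and 5 lower (4.03%), and the median difference was 0.09. The 4 were Sox2, Foxa1, Foxa3 and Creb3l1, and the 5 were Isx, Cdx1, Hnf4a, Hnf4g and Atoh1.

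Capn13, a calpain family gene, separated the groups by a gap of 1.33 between tumors 4 and 6. Its signal was 11.63, 10.74 and 10.09 in tumors 3, 5 and 4 and 8.72, 8.76 and 8.62 in tumors 2, 6 and 1, the latter within the adjacent range of 7.87 to 8.88. Capn8, the calpain of gastric pit cells, was 10.08 and 9.55 in tumors 3 and 5 but 7.90 in tumor 4, where tumors 6 and 1 had 7.88 and 7.81 and tumor 2 was slightly higher than tumor 4. Capn9, its partner, was likewise 10.67 and 9.44 against 8.12 in tumor 4. The gastric calpains therefore separated tumors 3 and 5 from the rest.

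The genes most alike Muc5ac over the 6 tumors, by Pearson correlation among 273 genes with a tumor range of at least 2 log2 units, were Vstm2b (r = 0.98), Lypd6b (0.98), Aqp3 (0.97), Fhl1 (0.97) and Mal (0.97). Mal, a raft protein of apical transport, was 12.75, 11.48 and 10.59 against 10.11, 9.95 and 9.54. Fhl1, a LIM-domain protein, was 13.06, 12.26 and 10.77 against 10.72, 10.55 and 10.61. Aqp3, a water and glycerol channel, overlapped, with 10.40, 9.68 and 7.96 against 8.23, 7.74 and 7.59. The likeness was chosen on these 6 arrays and is a description only.

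Of 12 measured gland mucous cell genes, 9 were above adjacent tissue in the tumors as a group (limma, background 19.1%). Several were highest in tumors 3 and 5, as Muc5ac was. Muc6 was 13.89, 14.23 and 13.97 in tumors 3, 5 and 4 and 13.66, 13.94 and 13.49 in tumors 2, 6 and 1, against 6.55 to 9.68 in adjacent tissue. On the list of mucous neck and Brunner gland genes, 0 of 12 split without overlap in either direction (background 9.46% higher and 4.03% lower), and the median difference was 0.41. That median was 0.26 without tumor 5, 0.19 within the mice whose number begins with B, and 0.15 without tumors 1 and 2, a choice made after seeing the data. Pgc, the pepsinogen of mucous neck and Brunner cells, was 13.79 and 13.25 there and 11.49 in tumor 4, against 11.82, 11.70 and 11.25 in tumors 2, 6 and 1. A4gnt, the glycosyltransferase that caps gland mucin, was 12.31 and 12.68 there and 10.84 in tumor 4, against 10.87, 11.25 and 10.39. Over the 6 tumors the correlation with Muc5ac was 0.96 for Pgc and 0.91 for A4gnt, a description only. Muc5b, another secreted gel-forming mucin, was 9.31, 10.36 and 8.55 against 7.62, 9.43 and 7.06, and was above adjacent tissue by 2.12 ± 0.38 (SE, limma adjusted p = 5.45e-04) over all tumors. For Muc6 and A4gnt the tumors were above adjacent tissue by 6.30 ± 0.74 and 4.75 ± 0.55 (SE, limma adjusted p = 1.66e-05 and 1.50e-05).

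Enzymes of mucin assembly and secretion were modestly higher. Of 26 measured genes for mucin glycosyltransferases and ER secretion, 11 were higher without overlap (background 9.46%) and 1 lower (4.03%), with a median difference of 0.27. Fut2, which adds the terminal fucose of gastric mucin, was 12.88, 13.07 and 13.01 against 12.21, 12.41 and 12.30. Galnt5, which starts mucin-type glycan chains, was 8.84, 9.80 and 9.14 against 8.62, 8.83 and 8.58, with 0.01 between tumors 3 and 6. Of the 26, 4 had a lower mean, and Gcnt4, a branching enzyme, was the gene lower without overlap, with 9.38, 9.35 and 9.80 against 10.42, 9.99 and 10.45.

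Gasdermin genes, which encode pore-forming proteins of epithelia, gave the next largest positive differences after Muc5ac. Gsdmc2 was 8.49, 10.75 and 10.35 in tumors 3, 5 and 4 and 6.24, 6.80 and 6.32 in tumors 2, 6 and 1. Gsdmc4 was 6.04, 9.61 and 9.28 against 4.73, 5.38 and 5.01. Both were thus highest in tumors 5 and 4 and not in tumor 3, the tumor richest in Muc5ac. Gsdma2 had the opposite order, with 10.95 and 9.61 in tumors 3 and 5, 5.49 in tumor 4, and 5.28 to 5.46 in the Muc5ac-low tumors. Members of these families are near-identical and may share probes, so signal cannot be assigned to a single member with certainty. The adjacent tissue also varied for Gsdmc4, from 4.82 to 7.73. As a group the tumors did not pass against it, with a difference of 0.59 ± 0.97 (SE, limma adjusted p = 0.731). Wildtype replicate 1, at 12.26, entered the spread of that fit. Of 8 measured gasdermins, a list made after the values were seen, 3 were higher without overlap (background 9.46%); Gsdmd and Gsdme were not among them.

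Chitinase-like genes marked tumor 5. Chil4 was 13.31 there, 9.74 and 11.31 in tumors 3 and 4, and 10.23, 9.71 and 9.99 in tumors 2, 6 and 1, against 4.75 to 5.06 in adjacent tissue. Chil3, its close paralog, was 6.48, 8.75 and 7.91 against 6.44, 5.95 and 6.04. Both rose above adjacent tissue in the tumors as a group (limma adjusted p = 1.12e-04 and 0.00604), and shared probes may join their signals. Slc26a9, a gastric chloride transporter, was more even, with 11.09, 10.24 and 10.68 against 9.66, 9.43 and 9.31 in the tumors and 6.02 to 6.78 in adjacent tissue.

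A few genes of deeper gastric glands were high in tumor 3, while the list of chief and parietal cell genes did not differ as a whole. Of its 12 measured genes, 5 had a higher and 7 a lower mean in the Muc5ac-high tumors, 2 were higher without overlap (Kcnj15 and Slc26a9, background 9.46%), and the median difference was -0.01. Cblif, the gastric intrinsic factor, was 11.50 in tumor 3, 7.62 in tumor 5 and 6.32 to 6.83 in the other 4 tumors. Kcnj15, a potassium channel of parietal cells, was 8.40 in tumor 3 and 6.69 to 6.88 elsewhere. Shh, the hedgehog ligand made in the stomach, was 9.71 and 8.72 in tumors 3 and 5, 7.83 in tumor 4 and 7.65 to 7.84 in the Muc5ac-low tumors. Among other antral and endocrine genes, Sst, the somatostatin of D cells, was 12.00 in tumor 3, 9.55 in tumor 5, 8.55 in tumor 4, and 10.78, 9.51 and 10.82 in tumors 2, 6 and 1. Adjacent tissue had Sst between 11.61 and 12.23, so tumor 3 was at the adjacent level and the other tumors below it. Pga5, a pepsinogen, was highest in tumor 5, at 7.54 against 7.05 in tumor 3, and Atp4a and Atp4b, the acid pump subunits, did not split the groups.

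Hormones of the small intestine were lower in the Muc5ac-high tumors. Cck, the cholecystokinin of I cells, was 8.59, 8.57 and 8.41 in tumors 3, 5 and 4 against 10.07, 9.04 and 9.95 in tumors 2, 6 and 1, with 9.99 to 10.96 in adjacent tissue. Gip, the incretin of K cells, was 8.07, 8.61 and 8.45 against 9.56, 9.22 and 9.28, and 10.57 to 11.45 in adjacent tissue. Pyy, peptide YY, was 8.63, 8.77 and 9.10 against 10.01, 9.87 and 9.70, and 7.16 to 9.75 in adjacent tissue. Over the 24 measured antral hormone and endocrine genes, 0 were higher without overlap (background 9.46%) and 5 lower (4.03%), and the median difference was -0.21, or -0.02 without tumor 4 and -0.44 without tumor 3. The tumors as a group fell below adjacent tissue for Cck and Gip, by 1.35 ± 0.23 and 2.25 ± 0.24 on the log2 scale (SE, limma adjusted p = 3.98e-04 and 6.94e-06). For Pyy they were above it, by 1.16 ± 0.43 (SE, limma adjusted p = 0.0495).

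Paneth cell genes were lower in the Muc5ac-high tumors. Lyz1, the lysozyme of Paneth granules, had the largest negative difference of all genes and was 11.11, 9.17 and 8.95 in tumors 3, 5 and 4 and 13.42, 12.28 and 12.97 in tumors 2, 6 and 1. Adjacent tissue lay at 13.51 to 14.03, so the Muc5ac-low tumors were nearer to it. Its difference of -3.15 is an 8.86-fold lower mean. Mmp7, the protease that activates intestinal defensins, was 8.23, 7.96 and 8.59 against 9.97, 9.53 and 9.70. Defa24, a defensin, overlapped, with 11.00, 9.34 and 7.87 against 12.84, 10.50 and 10.65. All 8 measured Paneth genes had a lower mean in the Muc5ac-high tumors, 2 of them without overlap (background 4.03%), with a median difference of -0.91. Without tumors 1 and 2, a choice made after seeing the data, that median was -0.33.

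Reg4, a secreted lectin of endocrine and goblet cells, was 10.45, 10.45 and 11.19 against 11.86, 12.54 and 12.23, and had the lowest correlation with Muc5ac among genes of wide range. Sval1, a seminal vesicle antigen-like gene, was 6.30, 5.92 and 6.69 against 8.10, 8.18 and 8.15. Its level in adjacent tissue was 4.15 to 5.43, so it was raised in tumors as a group (by 2.39 ± 0.40, SE, limma adjusted p = 3.33e-04) and more so in those with little Muc5ac. Of the 27 lower genes, 17 were also below adjacent tissue over all tumors, 3 above and 7 did not pass. Of the 56 higher genes, 36 were above adjacent tissue, 3 below and 17 did not pass. The background of the same limma test was 19.1% of genes higher and 12.6% lower. The 56 and 27 genes were chosen on tumor arrays that also enter that test. Their counts are therefore not comparable with this background, and nothing is read from them.

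Absorptive genes were below adjacent tissue in the tumors as a group, and the tumors differed less among themselves. Of 24 measured enterocyte genes, 22 were below adjacent tissue over all tumors (background 12.6%). Lct, the lactase of the brush border, was 7.67, 8.19 and 8.58 against 8.77, 7.93 and 7.70, with 12.30 to 13.58 in adjacent tissue, and the groups overlapped. Others were lower in the Muc5ac-high tumors without overlap, 8 of the 24 (background 4.03%), with a list median of -0.33. Fabp1, a fatty acid carrier, was 9.85, 11.07 and 11.19 against 11.20, 11.91 and 11.52. Mme, a brush border peptidase, was 9.74, 10.03 and 9.72 against 10.80, 10.22 and 10.94. Within the mice whose number begins with F the list median was -0.47, within those beginning with B it was -0.16, and without tumor 3 it was -0.22.

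Goblet cell genes did not follow Muc5ac as a group, with 3 of 14 higher without overlap (background 9.46%), 4 lower (4.03%) and a median difference of -0.24. The median was 0.06 without tumor 2 and 0.07 without tumor 3, so its sign rests on single tumors. Muc2, the intestinal goblet mucin, was 11.64, 13.16 and 13.35 in tumors 3, 5 and 4 against 13.00, 13.43 and 12.85 in tumors 2, 6 and 1. It was thus low in tumor 3 alone. Tff3, the intestinal trefoil peptide, was 12.77, 13.52 and 13.61 against 13.78, 14.01 and 13.86. Sytl2, a granule docking protein, went the other way, with 10.98, 10.20 and 9.75 against 9.66, 8.72 and 9.38.

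**Figure D3:**
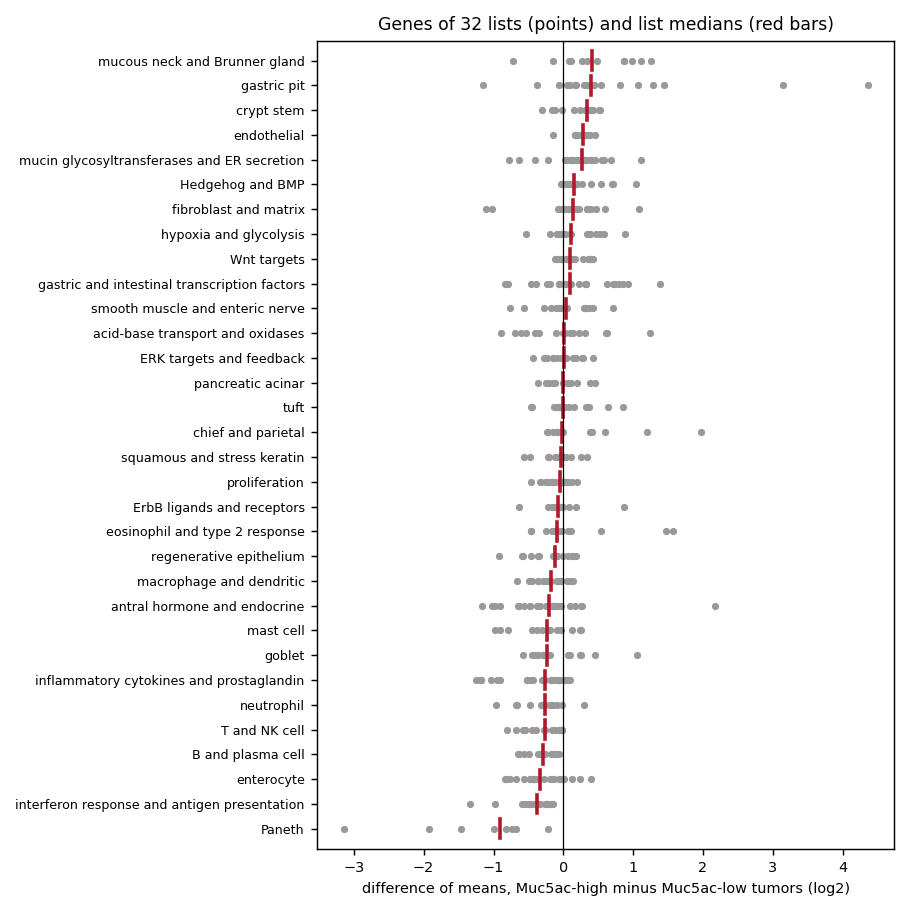
Each gray point is a gene, placed by its difference of means (Muc5ac-high minus Muc5ac-low tumors, log2, horizontal axis), in 32 gene lists (vertical axis), and red bars are list medians. The medians run from -0.91 for Paneth genes to 0.41 for mucous neck and Brunner gland genes, and in the gastric pit list Muc5ac and Psca lie far to the right of the other members.

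The inflammatory genes printed here separated tumors 3 and 5 from the other 4 tumors, and tumor 4 sided with the Muc5ac-low tumors. The first principal component of all genes set tumors 3 and 5 apart as well, so this arrangement is not particular to inflammatory genes. Il1b, the interleukin of activated myeloid cells, was 6.68 in tumor 3 and 7.04 in tumor 5, but 9.06 in tumor 4, against 8.22, 9.10 and 9.05 in tumors 2, 6 and 1. Il1a was 6.40 and 7.21, then 9.18, against 8.93, 8.62 and 8.76. Cxcl2, a neutrophil attractant, was 5.99 and 5.88, then 8.45, against 7.39, 8.07 and 7.98. In tumors 3 and 5 these genes were near the adjacent ranges of 6.31 to 6.99 (Il1b), 5.80 to 6.52 (Il1a) and 5.52 to 5.83 (Cxcl2). For all 3 genes tumor 4 was at or above the middle of the Muc5ac-low tumors.

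The same arrangement held for Lcn2, a siderophore-binding protein, at 8.21 and 8.83, then 11.19, against 10.35, 10.95 and 10.46. Ptgs2, the inducible cyclooxygenase, was 8.75 and 9.31, then 10.75, against 10.42, 10.60 and 10.50. Mmp13, a collagenase, was 7.66 and 9.31, then 11.27, against 9.86, 11.10 and 10.61. The mean over 25 measured genes for inflammatory cytokines and prostaglandin was 6.87 and 6.98 in tumors 3 and 5, 7.81 in tumor 4 and 7.50 to 7.83 in the Muc5ac-low tumors, against 6.67 to 6.83 in adjacent tissue. Of these 25 genes 0 were higher without overlap (background 9.46%) and 2 lower (4.03%), with a median difference of -0.26, or -0.51 without tumor 4, -0.15 without tumor 3 and -0.15 without tumor 6. The level over the 6 tumors as a group was above adjacent tissue for 13 of the 25 (limma, background 19.1%), including Il1b by 1.60 ± 0.34 (SE, adjusted p = 0.00214).

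**Figure D4:**
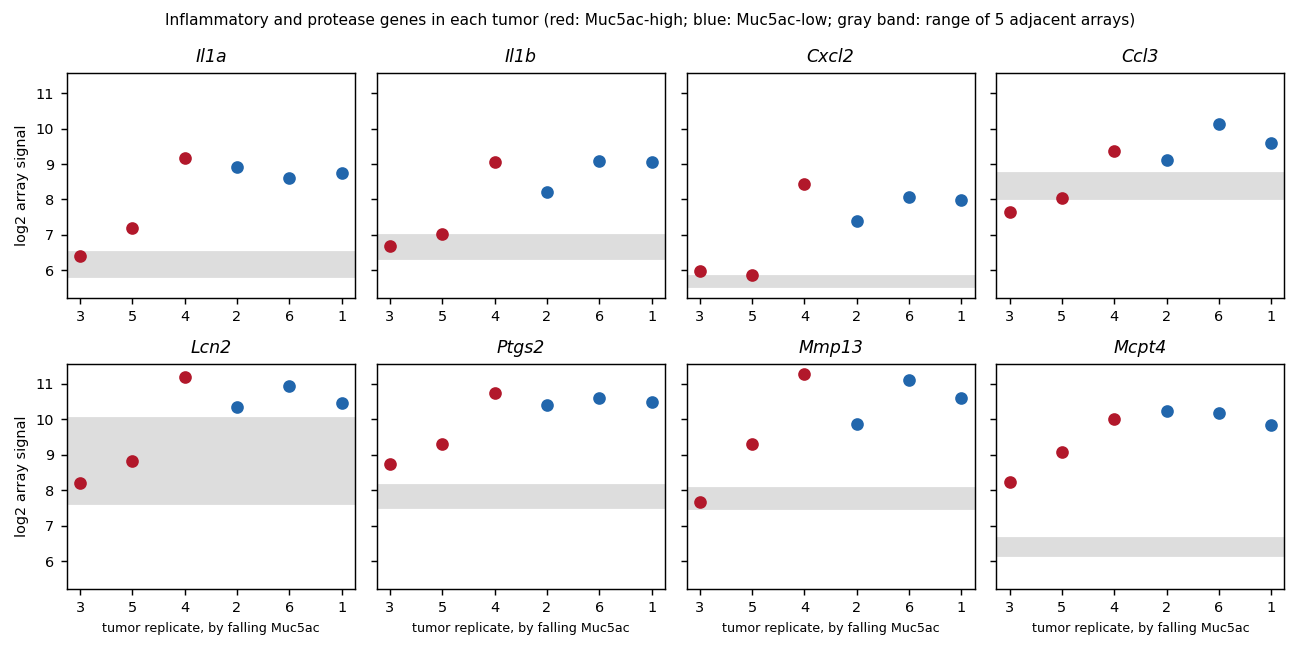
Log2 array signal (vertical axis) of 8 inflammatory and protease genes in each tumor, ordered by falling Muc5ac (horizontal axis, tumor replicate). Red points are Muc5ac-high and blue points Muc5ac-low tumors, and the gray band is the range of the 5 adjacent arrays. Tumors 3 and 5 are the 2 lowest tumors in every panel, and tumor 4 lies with the Muc5ac-low tumors.

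Immune cell markers were lower in the same tumors or overlapped. Neutrophil genes (14 measured) averaged 6.58 and 6.43 in tumors 3 and 5, 7.14 in tumor 4 and 6.77 to 7.17 in the Muc5ac-low tumors, where adjacent arrays had 6.39 to 6.68. Their receptor Cxcr2 was 5.50, 5.23 and 6.69 against 6.33, 6.53 and 7.47. B and plasma cell genes (12 measured) averaged 7.41, 7.78 and 8.06 against 8.22, 8.14 and 7.88, and Mzb1, a plasma cell chaperone, was 6.95 in tumor 3 and 8.41 to 9.19 in the others. T and NK cell genes were below adjacent tissue in all tumors for 12 of 17 members (background 12.6%), and 2 of 17 were lower in the Muc5ac-high tumors without overlap (4.03%). The part of these cells in the inflammatory values was not tested.

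The mast cell proteases Mcpt1 and Mcpt4 were above the adjacent range in every tumor and lowest in tumors 3 and 5. Mcpt4 was 8.22 and 9.09 there and 10.01 in tumor 4, against 10.23, 10.17 and 9.84 in tumors 2, 6 and 1 and 6.15 to 6.66 in adjacent tissue. Mcpt1 was 10.20, 10.78 and 12.47 against 11.93, 12.15 and 11.76. The tumors as a group were above adjacent tissue for Mcpt1 by 4.46 ± 0.72 and for Mcpt4 by 3.22 ± 0.33 (SE, limma adjusted p = 2.56e-04 and 6.38e-06). Cpa3, a mast cell carboxypeptidase, followed another order, with 6.93, 6.99 and 7.35 against 9.05, 6.85 and 8.09. Its adjacent range of 4.91 to 6.97 overlapped the tumors. Fcer1a, the mast cell IgE receptor chain, lay between 5.40 and 6.08 in all tumors. Of 13 mast cell genes 0 were higher without overlap (background 9.46%) and 3 lower (4.03%), with a median difference of -0.23.

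Antigen presentation and interferon genes were below adjacent tissue in the tumors as a group, and all 17 measured genes had a lower mean in the Muc5ac-high tumors. Psmb8, a subunit of the immunoproteasome, was 7.93, 8.25 and 8.18 against 8.90, 8.34 and 8.91, with 10.26 to 10.74 in adjacent tissue. Of these 17 genes, 15 were below adjacent tissue (limma, background 12.6%) and 5 split the tumors as lower (background 4.03%), with a median difference of -0.38, or -0.15 within the mice whose number begins with B. Ifit1, an interferon-induced gene, did not follow the groups, being 9.96 in tumor 5 and 6.49 and 6.83 in tumors 3 and 4, against 8.06 to 9.67.

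Several growth-related lists had medians near that of all genes, while the median of the crypt stem list was higher. The median differences were -0.05 for proliferation (22 measured), 0.00 for ERK targets and feedback (19), -0.08 for ErbB ligands and receptors (13) and 0.10 for Wnt targets (18). Of those 22 proliferation genes, 0 split the groups in either direction (background 9.46% higher and 4.03% lower), and leaving out 1 tumor moved their median between -0.32 and 0.15. Egfr, the receptor that Lrig1 restrains, was 10.29, 10.26 and 10.63 against 10.12, 10.15 and 10.36. Ereg, an ErbB ligand, was 7.25 and 8.21 in tumors 3 and 5, 8.94 in tumor 4 and 8.57 to 9.05 in the Muc5ac-low tumors, the arrangement of the inflammatory genes. Of 14 measured crypt stem genes, 4 were higher without overlap (background 9.46%) and 0 lower, with a median difference of 0.33. Lrig1, the gene disrupted in these mice, was among the 4, with 0.20 between the lowest Muc5ac-high and the highest Muc5ac-low tumor. Which part of its locus the probes read was not analysed. Leaving out 1 tumor moved that median between 0.20 and 0.34. Sox9, a crypt factor, was 12.31, 12.59 and 12.36 against 12.05, 12.25 and 11.39, and 9.86 to 10.01 in adjacent tissue. Ascl2, a stem cell factor of the crypt, overlapped between the groups, with 8.84, 9.19 and 8.63 against 8.32 and 8.29 in tumors 6 and 1 and a value between those of tumors 3 and 5 in tumor 2.

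Stromal lists were not alike. Smooth muscle and enteric nerve genes averaged 8.96 and 9.12 in tumors 3 and 5, 7.55 in tumor 4 and 7.97 to 8.94 in the Muc5ac-low tumors. Of the 16 measured, 1 was higher without overlap (background 9.46%). Of 15 endothelial genes, 14 had a higher mean in the Muc5ac-high tumors and 2 (Pecam1 and Esam) were higher without overlap (background 9.46%), with a median of 0.28, or 0.13 without tumor 4. Of 24 fibroblast and matrix genes, 18 had a higher mean and 2 (Lum and Col6a1) were higher without overlap (background 9.46%). The list median was 0.13, or 0.30 without tumor 3 and -0.08 without tumors 1 and 2. Lum, a matrix proteoglycan, was 7.53, 7.32 and 7.34 against 6.90, 6.65 and 6.87. Postn, the matrix protein periostin, overlapped, with 10.40, 9.56 and 8.33 against 8.14, 8.08 and 8.80.

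Several enzymes and transporters were among the higher genes. Chac1, a glutathione-degrading enzyme, was 11.16, 10.38 and 9.36 in tumors 3, 5 and 4 against 8.20, 8.90 and 7.97 in tumors 2, 6 and 1. Slc7a5, a transporter of large amino acids, was 11.50, 11.71 and 11.34 against 10.31 and 10.61 in tumors 2 and 6 and less in tumor 1, and Asns, the asparagine synthetase, was 13.01, 12.26 and 11.94 against 11.61, 11.68 and 11.69. For all 3 genes the highest adjacent array was replicate 2, from the mouse of tumor 3, at 11.48, 12.09 and 12.85, and that array also had the most acinar signal. In the other arrays with acinar transcripts, Chac1 was 9.43 (wildtype replicate 1), 8.43 (adjacent replicate 1) and 8.26 (wildtype replicate 3). It was 8.15 to 8.36 in adjacent replicates 3 to 5. Nqo1, a quinone reductase, was 12.34, 11.21 and 10.33 against 10.15, 10.09 and 10.18, and Aldh3a1, an aldehyde dehydrogenase, was 9.96, 7.72 and 7.04 against 6.59, 6.38 and 6.54. Neither was raised in adjacent replicate 2, where Nqo1 was 9.87 and Aldh3a1 6.10. The part of acinar cells in these values was not tested. Slc7a5 and Asns were picked after their values were seen.

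Clock genes also differed between the tumor groups, and the mouse of tumor 2 had the same pattern in its adjacent tissue. Dbp, a rhythmic transcription factor, was 10.43, 10.77 and 9.82 in tumors 3, 5 and 4 against 7.97, 9.46 and 7.75 in tumors 2, 6 and 1. In adjacent tissue Dbp was 8.31 in replicate 1, from the mouse of tumor 2, and 10.79 to 11.34 in the other 4. Ciart, a repressor in the clock, was 9.07, 9.29 and 8.21 against 6.85, 8.12 and 7.66, and 6.68 in adjacent replicate 1 against 9.11 to 9.70. Arntl, the clock activator, ran the opposite way, with 8.78 and 9.25 in tumors 2 and 1, 7.28 to 8.08 in the other tumors, and 9.26 in adjacent replicate 1 against 7.64 to 7.94. Wildtype replicate 1 was like these mice, with Dbp at 8.39 and Arntl higher than the 7.59 and 7.23 of wildtype replicates 2 and 3.

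Of 17 measured clock genes, a list made after the values were seen, 7 were higher without overlap (background 9.46%) and 0 lower. Within the mice beginning with F the Dbp difference was 2.57, and within those beginning with B it was 0.84. Without tumors 1 and 2, which left tumor 6 as the only Muc5ac-low tumor, the Dbp difference was 0.88. Sampling time is not labelled, and its part in these values was not tested.

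**Figure D5:**
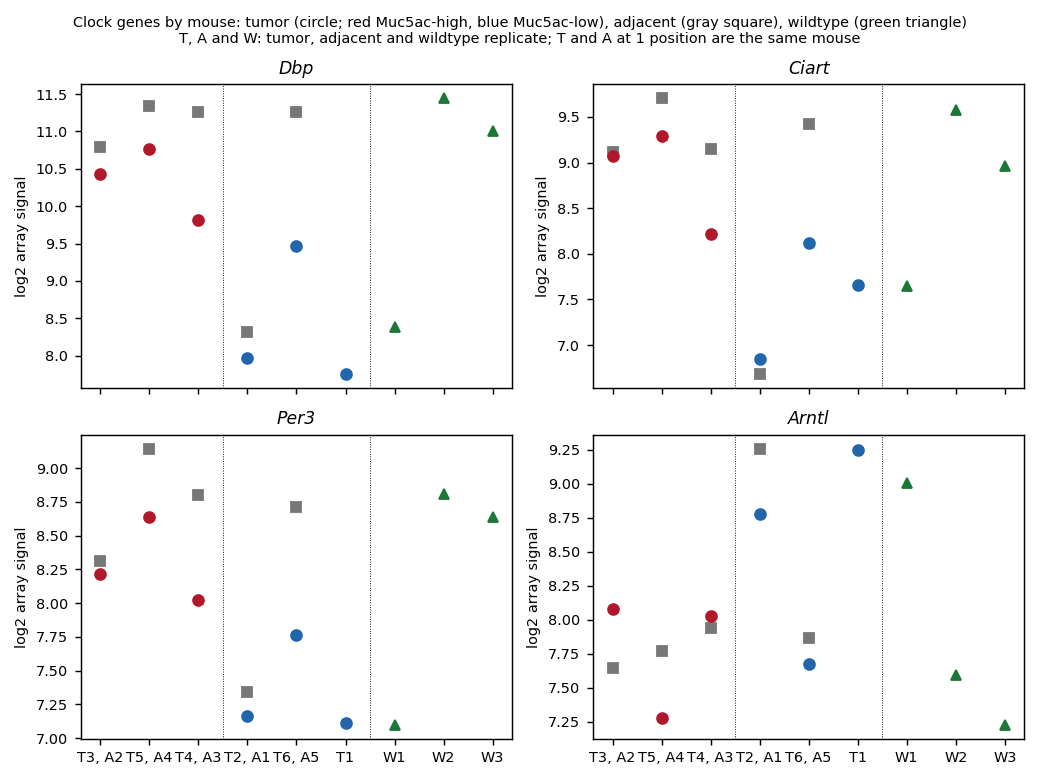
Log2 array signal (vertical axis) of 4 clock genes in 9 mice (horizontal axis, named by their tumor, adjacent and wildtype replicates). Circles are tumors (red Muc5ac-high, blue Muc5ac-low), gray squares adjacent and green triangles wildtype tissue. In the mouse of tumor 2 both tissues are low for Dbp, Ciart and Per3 and high for Arntl, as are tumor 1 and wildtype replicate 1.

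The adjacent arrays, which the ordering by tumor Muc5ac did not use, were tested by the group of the mouse's tumor, 3 against 2. With limma and Benjamini-Hochberg adjustment, 0 of 19938 genes passed (0.0%). An unadjusted p under 0.05 was found for 494 of the 19938, a smaller share than the 0.05 expected without any difference. Muc5ac itself differed by -0.18 there (95% interval -0.65 to 0.30), Psca by -0.24 (-1.03 to 0.56) and Gast by -0.18 (-0.54 to 0.17). The mean of the pit list was 8.97 in adjacent replicate 1, from the mouse of tumor 2, and 7.53 to 8.02 in the other 4 adjacent arrays. Dbp differed by 1.34 (-0.55 to 3.24) and Lyz1 by 0.01 (-0.41 to 0.43). Leaving out adjacent replicate 2 or 5 gave 1 call each, and leaving out both arrays with acinar transcripts gave 2, an alternative added after seeing the data. Without replicate 5, or without both acinar arrays, a single array stands for the Muc5ac-low side and is assumed to vary like the others.

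The smallest p in that test belonged to Trim12a, a tripartite motif gene of antiviral defence, with a difference of -3.34 (limma, unadjusted p = 5.41e-05, adjusted p = 0.999). It was 9.85 and 8.58 in adjacent replicates 1 and 5 and 5.85 to 5.90 in the other 3. Tumors of the same mice, 2 and 6, had 7.84 and 7.19, and the other 4 tumors had 5.47 to 5.71. Trim30d, of the same family, was 10.06 and 9.60 in adjacent replicates 1 and 5 and 7.18 to 8.23 in the others, and 8.33 and 7.43 in tumors 2 and 6 and 5.11 to 6.05 in the other tumors. Wildtype replicate 3 was also high for both, at 9.15 and 10.28. These genes thus went with the mouse in both tissues; they belong to families of close relatives, whose probes may be shared, and the mice were of mixed background.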

How the data were processed

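Total RNA of 14 mouse duodenal samples was measured on Affymetrix Mouse Gene 1.0 ST arrays. The deposited table gives log2 signals of 35556 transcript clusters, a unit read from its values. The submitters' processing notes name Affymetrix Expression Console 1.1 and mm9. How background was corrected or arrays were normalized is not given in the sources used here. Values were used as deposited, since the medians of the arrays over genes ran from 7.59 to 7.79. The number of arrays limits the precision.

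A single symbol was held by 21789 clusters, several by 1621 and none by 12146. Symbols were updated by gene identifier for 21698 and kept as annotated for 91. The brightest cluster represented each of the 999 genes with several, which left 19938 genes.

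Tumors were ordered by Muc5ac (highest 3 against lowest 3). Members and gene lists were chosen with earlier results of these data known. The 32 lists hold 590 entries, 42 of them not in the table, and 3 further lists were made after the values were seen. A gene counted as higher or lower when the groups did not overlap, with or without a 2-fold difference of means. Tests used limma 3.58.1 in R 4.3.3 (lmFit, eBayes, two-sided, Benjamini-Hochberg over all genes, 0.05). Adjacent arrays were fitted alone; tumor against adjacent tissue used all 14 arrays in 3 groups with mouse as a random block (correlation 0.334, reused when a replicate was left out). Samples of a group are separate mice. The fits were tested on simulated data.

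Named genes were Muc5ac, Psca, Gast and Lrig1, the 15 largest differences each way, the 5 genes most and the 5 least like Muc5ac, up to 5 genes per list and the 10 smallest p-values in adjacent tissue. Immunoglobulin, T cell receptor, defensin, olfactory, predicted and small RNA genes were left out of the first selections. Gkn1, Gkn2, Tff1, Capn9, Fer1l4, Cdx1, Cdx2, Vil1, Lct, Sst, Asns, Slc7a5, Nqo1, Atp4a, Atp4b, Pdx1, S100g, Enpp7, Foxa1, Creb3l1, Hnf4a, Hnf4g and Col6a1, and the clock, gasdermin and mucin genes, were picked outside it after their values were seen. Alternatives covered quantile normalization, median centring, other gene summaries, a filter at 8 and left-out replicates. Promoter letters come from RefSeq (GRCm38.p6); no coordinates of the mm9 files were used.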

Additional observations from a re-analysis of the deposited data

Results flagged for a closer look

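For 104 of the genes named here, the 6 tumors and the 5 adjacent arrays were checked separately, as 208 groups. In 19 of these groups a single array stood far from the rest by Dixon's test. Chance alone flags about 1 in 20 groups when genes are not picked by their values. Many of these genes were picked by their values, so that rate does not apply to them.

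Tumor 3 stood apart in 5 genes. It was the highest tumor for Gast (13.22, the others 6.94 to 7.69), Cblif (11.50, the others 6.32 to 7.62) and Kcnj15 (8.40, the others 6.69 to 6.88), and the lowest for Muc2 (11.64, the others 12.85 to 13.43) and Mzb1 (6.95, the others 8.41 to 9.19).

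Adjacent replicate 1, from the mouse of tumor 2, stood apart in 5 genes. It was the highest adjacent array for Arntl (9.26, the others 7.64 to 7.94), Il1a (6.52, the others 5.80 to 5.86) and Mcpt1 (8.63, the others 6.27 to 6.93). It was the lowest for Ciart (6.68, the others 9.11 to 9.70) and Dbp (8.31, the others 10.79 to 11.34).

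Adjacent replicate 2, from the mouse of tumor 3 and the adjacent array with the most acinar signal, stood apart in 8 genes. It was the highest for Asns (12.85), Slc7a5 (12.09), Chac1 (11.48), Ccdc141 (8.19) and Lum (7.07, the others 5.75 to 6.13), and the lowest for Ascl2 (7.85), Cdx2 (10.61) and Tff3 (13.60). Adjacent replicate 5 was the highest for Mal (7.66, the others 6.92 to 7.05).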

How the results depend on the processing

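The order of the tumors by Muc5ac and the grouping stayed the same under each scaling and gene summary tried. The 56 higher and 27 lower genes became 271 and 165 at 1.5-fold, and 313 and 236 within the mice whose number begins with F. Within the mice beginning with B, 311 genes were lower. Without tumors 1 and 2, chosen after seeing the data, 140 were higher and 220 lower. Leaving out 1 tumor at a time gave 48 to 215 higher and 29 to 95 lower genes. Fewer tumors make non-overlap easier to meet. The 56 and 27 genes keep their non-overlap in any subset of the tumors, so only the 2-fold part could fail. Of the 56 and 27 genes, 35 and 19 still met the criterion without tumor 3, and 31 and 12 within the mice beginning with B. The enterocyte median (-0.33) was -0.47 within F, -0.16 within B and -0.20 without tumors 1 and 2, where the Paneth median (-0.91) was -0.33. With only genes reaching 8 in a tumor, the inflammatory median (-0.26) was -0.92 and the mast cell median (-0.23) was -0.80. Centring arrays on their median lowered the median for mucin glycosyltransferases and ER secretion from 0.27 to 0.20. These list medians kept their sign in each alternative. In adjacent tissue, 0 calls became 0 to 1 when a replicate was left out (1 without replicate 2, 1 without replicate 5) and 2 without both arrays with acinar transcripts; the cause was not tested. Tumor against adjacent tissue gave 3166 to 3942 higher and 2084 to 2632 lower genes when 1 array was left out. The fit with mouse as a random block gave 3804 and 2509 genes, and 2853 and 1958 when that block was dropped. The small number of mice, mixed strain background and unlabelled sampling time limit these comparisons, and signals near the array maximum compress differences.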

Other observations

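Wildtype replicate 1 carried several genes that vary among the tumors. Its mean over the gastric pit list was 11.85, against 7.70 and 8.38 in the other wildtype arrays and 11.13 to 12.35 in tumors. This array exceeded every Muc5ac-low tumor for 45 of the 56 higher genes. The same share over all genes was not computed, so nothing is read from that count. Gsdmc2 was 13.14 there and 7.96 and 6.38 in the other wildtype arrays. Muc5b, the mucin that was high in tumors 3, 5 and 6, was 6.68 in that array, within the adjacent range of 6.61 to 6.93.

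Pdx1, a transcription factor of proximal duodenum and pancreas, was 10.54 to 11.22 in tumors and 11.64 and 10.76 in adjacent replicates 1 and 2, but lower than in any tumor in the other 3 adjacent arrays, down to 7.86. S100g, a calcium carrier of duodenal enterocytes, had the same arrangement, with 12.73 to 13.36 in tumors, 13.74 and 13.45 in adjacent replicates 1 and 2, and 8.06 to 9.25 in the others. Enpp7, a brush border sphingomyelinase, was the reverse in adjacent tissue, with 7.36 and 8.86 in replicates 1 and 2 and 11.90 to 13.28 in the others, and was 6.40 to 6.73 in tumors. These 3 genes were picked after their values were seen.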
